A study of Mus musculus with 6 samples.

Results

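The lysosome and autophagy genes are the genes of the acid compartment that digests cell contents and of the membrane machinery that delivers contents to it. Members were chosen by gene symbol: the cathepsins (Cts and a letter), the LAMP proteins, the subunits of the proton pump V-ATPase (Atp6v), the ATG proteins, and the Gabarap and Map1lc3 genes. They were measured by 98 probe sets and came to 58 of the 12393 genes measured, with the brightest probe set standing for each gene. They were 17 cathepsins, 3 LAMP genes, 7 subunits of the membrane sector V0 and 12 of the cytosolic sector V1 of the V-ATPase, 14 ATG genes and 5 genes of the ATG8 family. A further probe set that carried several symbols, that of Lamp3 among them, was not counted.

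Lenses were taken at birth (postnatal day 0), and their total RNA was amplified, labelled with biotin and hybridised to 1 oligonucleotide array per sample. The mutant group held 3 samples from Le-AP-2alpha mice, conditional mutants of Tfap2a (Tcfap2a in the labels), which encodes the transcription factor AP-2alpha. The control group held 3 samples from wild-type littermates. The Cre driver, the deleted part of the gene, the strain and whether a sample is a single animal or a pool are not given in the sources used here, so the tests below speak only of how far these samples vary. All samples are whole lenses, in which fewer cells of a type and less RNA per cell cannot be told apart.

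Cathepsins are proteases that work in the acid lumen of the lysosome, and the V-ATPase pumps in the protons that keep it acid. LAMP1 and LAMP2 line the lysosomal membrane. In autophagy, a double membrane grows around cytoplasm under the control of ATG proteins, which attach ATG8 proteins such as LC3 and GABARAP to lipid, and the closed vesicle then fuses with lysosomes. Lens fibre cells remove their nuclei, mitochondria and endoplasmic reticulum as they mature, while the epithelial cells at the front of the lens keep theirs. In mice, fibres that lack Atg5 are known still to lose these organelles, so autophagy that depends on Atg5 is not required for that loss.

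Short stretches of promoter are shown because many lysosome genes share a DNA element, known as CLEAR, whose core is CACGTG and which is bound by the factor TFEB and its relatives, and because AP-2 factors bind GCCNNNGGC. RefSeq promoter windows (GRCm38.p6, 250 bases before to 50 after the gene start) were found for 46 of the 58 genes. Each motif reads the same on both strands and neither can contain the other. The sequences are the 100 bases before the start, on the strand of the gene, with matches to either motif in capitals. They are Lamp1 (chr8:13159061-13159160, plus strand), which had most copies of CACGTG, Atp6v0b (chr4:117887330-117887429, minus strand), which had both motifs, Atg3 (chr16:45158729-45158828, plus strand) and Ctsd (chr7:142387828-142387927, minus strand) with CACGTG, and Map1lc3b (chr8:121590338-121590437, plus strand) and Gabarapl1 (chr6:129533092-129533191, plus strand) with the AP-2 motif.
Lamp1: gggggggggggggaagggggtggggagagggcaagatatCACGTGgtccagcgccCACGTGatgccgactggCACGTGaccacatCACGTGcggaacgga
Atp6v0b: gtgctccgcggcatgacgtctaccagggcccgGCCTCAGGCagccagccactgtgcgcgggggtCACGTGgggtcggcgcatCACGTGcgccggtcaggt
Atg3: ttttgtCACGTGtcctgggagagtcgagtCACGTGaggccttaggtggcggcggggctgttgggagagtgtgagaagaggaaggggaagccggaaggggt
Ctsd: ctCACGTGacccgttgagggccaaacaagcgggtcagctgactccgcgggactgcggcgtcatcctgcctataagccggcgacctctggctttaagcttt
Map1lc3b: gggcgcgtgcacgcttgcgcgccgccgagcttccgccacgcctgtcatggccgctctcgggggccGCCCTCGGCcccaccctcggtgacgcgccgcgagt
Gabarapl1: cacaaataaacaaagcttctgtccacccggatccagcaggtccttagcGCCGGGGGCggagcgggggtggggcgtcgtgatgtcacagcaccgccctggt
In Lamp1 the 4 copies of CACGTG began 61, 45, 28 and 15 bases before the start, and in Atp6v0b the AP-2 motif began at 68 and CACGTG at 36 and 18. CACGTG was in the window of 13 of the 46 genes, which is 26.5% of their windows, against 9.11% of windows of all genes measured and 7.15% of all windows. It was found for Ctsa, Ctsd, Ctsf and Ctsl, for Lamp1, for Atp6v0b, Atp6v0d1, Atp6v0e and Atp6v1a, and for Atg3, Atg5, Atg7 and Atg14. The 7-base form TCACGTG, which contains CACGTG, was in 20.4% of the members' windows and in 5.14% of windows of genes measured. The AP-2 motif was in the windows of 8 of the 46 genes, which is 16.3% of their windows, against 22.9% for genes measured and 16.6% of all windows. It was found for Atg3, Atg4b, Atg10, Atg101, Atp6v0b, Lamp5, Gabarapl1 and Map1lc3b, and in no cathepsin window. A match describes the letters only.

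The arrays were alike in scale, with median log2 levels of 5.19 to 5.32, and wild-type replicate 1 stood apart. Its correlation with the other arrays over all probe sets was 0.926 to 0.945, against 0.974 to 0.985 among the other 5. Over the 58 genes the same values were 0.938 to 0.965 and 0.980 to 0.992. The 3' minus 5' log2 difference of the control probe sets for Gapdh was 1.07 on that array and 0.73 to 1.39 on the others, so this sign of RNA quality did not set it apart. Tfap2a itself was at 9.57, 9.64 and 9.83 in mutants and 8.36, 9.26 and 9.56 in wild types, and its 3 probe sets differed by 0.62, 0.36 and 1.57 between the groups. Since the deleted part is not known here, these values do not check the labels. The lens crystallin Cryaa was at 13.63 to 13.81 on every array. Several results that rest on wild-type replicate 1 are given with and without it. Other genes are given with all arrays only, which does not mean that they are free of it.

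The lysosome and autophagy genes, read as the log2 of the deposited intensity, had medians close to those of all genes when mutant and wild-type lenses were compared. The median log2 difference, mutant minus wild type, was -0.01 over the 58 genes, with 28 higher and 30 lower. Over all 12393 genes it was -0.01, with 5919 higher and 6474 lower. The mean log2 level of the 58 genes was 6.88, 7.04 and 6.98 in the mutants and 7.15, 6.83 and 6.96 in the wild types. The groups overlapped, with wild-type replicate 1 highest and wild-type replicate 2 lowest.

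No member passed the test. Each probe set was tested with limma, a linear model across all 22626 probe sets, and p-values were adjusted over all of them by Benjamini-Hochberg. limma called 0 of the 58 genes at an adjusted p under 0.05, with 0% of all probe sets called, and the adjusted p of every member was 0.999. At an unadjusted p under 0.05 there were 0 of 58 members, against 3.85% of all genes, and over all 98 member probe sets there was 1, against 3.28% of all probe sets (1.58% with lower mutants). That was the dimmest of 3 probe sets of Atp6v1e1, at -0.54 ± 0.20 (SE), while the brightest differed by -0.07 ± 0.24. The groups did not overlap for 1 of 58 members, Ctsb with higher mutants, against 8.8% of all genes (4.22% with higher mutants).

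The data set limits of different width on what could have gone undetected. The median absolute log2 difference of the members was 0.13, against 0.20 over all genes, and the median within-group SD was 0.37, against 0.36. The 95% confidence interval of the difference, not adjusted for the number of genes, lay within a 2-fold change in either direction for 33 of the 58 genes, which is 56.9%, against 57.9% of all genes. Of the 39 members brighter than the median of all probe sets it did so for 16. A 2-fold change in at least 1 direction was within the interval of the others, among them Ctss, Ctsl, Atg5, Atg7 and Atp6v1h.

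**Figure D1:**
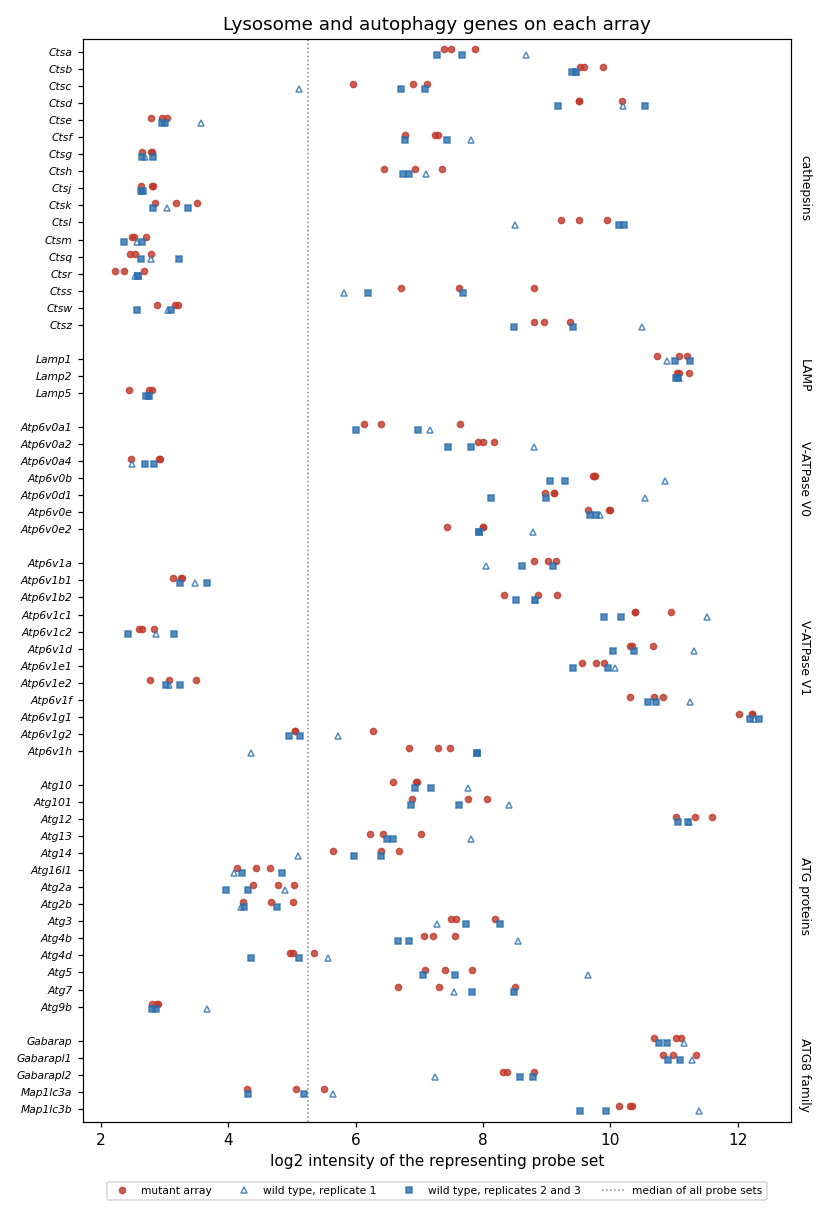
Log2 intensity of the probe set that represents each of the 58 genes (rows, by role) on each of the 6 arrays: red circles are mutants, blue squares wild-type replicates 2 and 3, and open triangles wild-type replicate 1. The dotted line is the median of all probe sets, 5.26. The mutants lie wholly apart from all wild types, the open triangle included, for 1 of the 58 genes, Ctsb, against 8.8% of all genes. The open triangle lies at an end of the row for 32 of the 58.

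**Figure D2:**
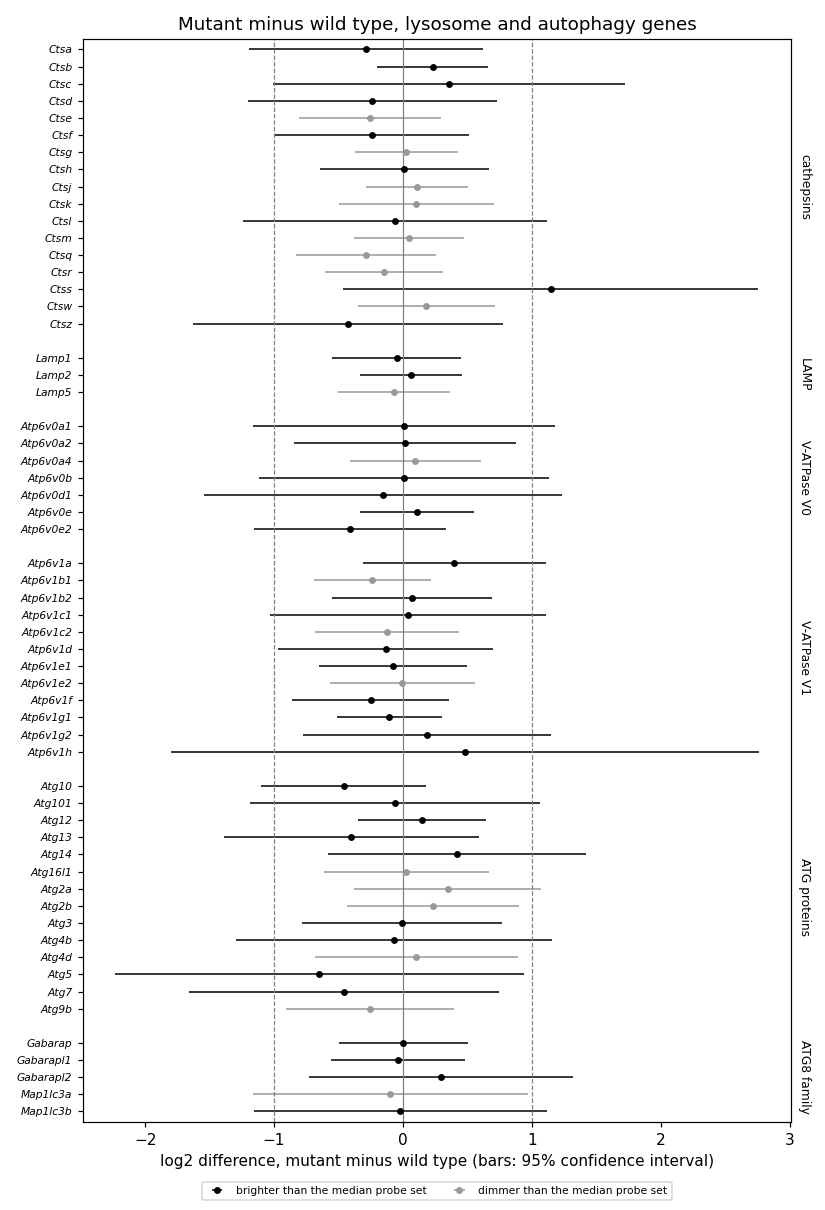
Log2 difference, mutant minus wild type, of the same genes by role with 95% confidence intervals from limma; black genes are brighter and grey genes dimmer than the median probe set. Every interval includes 0, and 33 of the 58 lie between the dashed lines, which mark a 2-fold change.

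Of the cathepsins, 9 were brighter than the median probe set (log2 level 5.26, dimmer genes being called dim): Ctsa, Ctsb, Ctsc, Ctsd, Ctsf, Ctsh, Ctsl, Ctss and Ctsz. The 8 dim genes, at 2.50 to 3.13 on average, were Ctse, Ctsg, a serine protease of neutrophil granules, Ctsj, Ctsm, Ctsq and Ctsr, which belong to a group of placental cathepsins, Ctsk, a collagenase of osteoclasts, and Ctsw, which is found in lymphocytes. Of the 17, 9 were higher and 8 lower in mutants, with a median difference of 0.01.

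Cathepsin D, the main aspartic protease of lysosomes, was at 9.52, 10.19 and 9.50 in mutants and 10.20, 9.17 and 10.55 in wild types. Both ends of the range were wild types, and the difference was -0.24 ± 0.40 (SE, interval -1.20 to 0.73). Ctsl, a cysteine endopeptidase, was at 9.22, 9.94 and 9.51 in mutants and 8.50, 10.14 and 10.21 in wild types. The mutants lay between wild-type replicate 1 and the other wild types, so that the difference was -0.06 ± 0.49 with all arrays and -0.62 ± 0.26 without wild-type replicate 1. The unadjusted p was then 0.0498 and the limma adjusted p 0.916.

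Ctsb, a cysteine protease with both endopeptidase and dipeptidase activity, was at 9.59, 9.88 and 9.53 in mutants and 9.46, 9.39 and 9.46 in wild types. Each mutant lay above each wild type, by a small margin. The difference was 0.23 ± 0.18 (SE), a 1.17-fold ratio whose interval ran from 0.87 to 1.58, and the limma adjusted p was 0.999. Its other 3 probe sets differed by 0.22, 0.34 and 0.16, all in the same direction. Without mutant replicate 2 the difference was 0.12.

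Ctss, a cysteine protease abundant in macrophages and other antigen-presenting cells, had the largest difference of the 58 genes. It was at 6.71, 8.80 and 7.62 in mutants and 5.82, 7.69 and 6.19 in wild types. Wild-type replicate 2 was above 2 of the 3 mutants. The difference was 1.15 ± 0.67 (SE, interval -0.46 to 2.75), a 2.21-fold ratio, with an unadjusted p of 0.134 and a limma adjusted p of 0.999. It was 0.60 without mutant replicate 2, 0.77 without wild-type replicate 1 and 1.71 without wild-type replicate 2.

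Macrophage and leukocyte markers were on average highest in mutant replicate 2. Their mean log2 level over 19 genes was 5.24, 6.62 and 5.53 in mutants and 5.11, 5.26 and 5.13 in wild types, with 17 of the 19 higher in mutants and a median difference of 0.68. Of the 19, 10 were brighter than the median probe set, while the defining markers Ptprc and Cd68 were dim, at 4.44 and 4.79 on average in mutants. Mutant replicate 2 was highest for the marker mean and for 4 of the 9 brighter cathepsins, Ctsb, Ctsc, Ctsh and Ctss. It was highest for 1676 of all 12393 genes, dim ones included. The same count over brighter genes alone is not given here, so the 2 counts are not on the same footing. Wild-type replicate 1 was highest for Ctsa, Ctsf and Ctsz, and wild-type replicate 3 for Ctsd and Ctsl. Wild-type replicate 2, in which Ctss was at 7.69, had a marker mean within the range of the mutants other than replicate 2. The part of these cells in the values of Ctss and Ctsb was not tested.

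**Figure D3:**
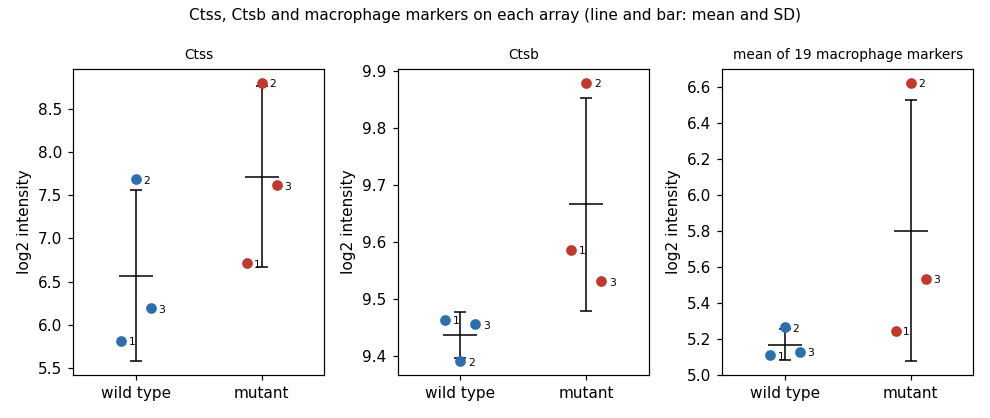
Log2 intensity of Ctss, of Ctsb and of the mean of 19 macrophage and leukocyte markers on each array, with replicate numbers beside the points and the mean and SD of each group (n = 3) as a line and bar; each panel has its own vertical scale. Mutant replicate 2 is the highest point of each panel, at 8.80, 9.88 and 6.62.

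For Lamp1 and Lamp2 the groups overlapped. Lamp1, a heavily glycosylated protein of the lysosomal membrane, was at 11.08, 10.73 and 11.20 in mutants and 10.89, 11.25 and 11.01 in wild types, a difference of -0.05 ± 0.21 (SE). Lamp2, which is also the receptor of chaperone-mediated autophagy in one of its splice forms, was at 11.08, 11.04 and 11.24 in mutants and 11.07, 11.07 and 11.03 in wild types, a difference of 0.06 ± 0.17. The 95% interval of the ratio of mutant to wild type was 0.683 to 1.37 for Lamp1 and 0.794 to 1.38 for this probe set of Lamp2. The other 3 probe sets of Lamp2 differed by 0.81, 0.13 and 0.13 with all arrays and by -0.22, -0.37 and -0.24 without wild-type replicate 1, which was lowest on all 3. Lamp5, a relative known from neurons, was dim in both groups, at 2.67 ± 0.19 in mutants against 2.74 ± 0.03 in wild types (SD, n = 3).

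In the V0 sector, through which protons cross the membrane, 5 of 7 subunits were higher and 2 lower in mutants, with a median difference of 0.01. Of the 6 that were brighter than the median probe set, 4 were highest in wild-type replicate 1. Atp6v0b, a proteolipid of the proton-carrying ring whose promoter is shown above, was at 9.72, 9.76 and 9.74 in mutants and 10.85, 9.06 and 9.29 in wild types. The mutants lay close together between wild-type replicate 1 and the other wild types. The difference was 0.01 ± 0.47 (SE) with all arrays and 0.57 ± 0.18 without wild-type replicate 1, with limma adjusted p of 0.999 and 0.839. Its other probe sets differed by 0.05 and -0.15 with all arrays, and by 0.08 and -0.06 without wild-type replicate 1. The 0.57 was thus seen by the brightest probe set only.

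Atp6v0d1, which joins the ring to the central stalk, was at 8.97, 9.12 and 9.12 in mutants and 10.55, 8.13 and 8.99 in wild types. Wild-type replicate 1 was again highest and wild-type replicate 2 lowest, with wild-type replicate 3 within the mutants. Over all arrays it differed by -0.15 ± 0.58, and once wild-type replicate 1 was left out by 0.51 ± 0.29. Atp6v0e, a small membrane subunit, was at 9.997, 9.98 and 9.65 in mutants and 9.84, 9.68 and 9.78 in wild types, a difference of 0.11 ± 0.18. Atp6v0e2, its paralog, was at 7.998, 7.44 and 7.998 against 8.79, 7.94 and 7.93, with only wild-type replicate 1 clear of the mutants. Its difference was -0.41 ± 0.31, and -0.13 without that array. Over the V0 sector, the median difference was 0.23 without wild-type replicate 1 and -0.33 without wild-type replicate 2, so its sign rested on single wild-type arrays.

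In the V1 sector, which splits ATP to drive the pump, 5 of 12 subunits were higher and 7 lower, with a median of -0.04. Atp6v1a, the catalytic subunit, was at 8.80, 9.15 and 9.01 in mutants and 8.05, 9.10 and 8.62 in wild types, a difference of 0.40 ± 0.30 (SE) that was 0.13 without wild-type replicate 1. Atp6v1g1, a stalk subunit, was at 12.22, 12.02 and 12.22 against 12.26, 12.19 and 12.33, and Atp6v1f, a subunit of the central stalk, at 10.30, 10.68 and 10.82 against 11.25, 10.59 and 10.72. The groups overlapped for each of these. Of 3 dim subunits, Atp6v1b1, a form known from kidney and inner ear, was at 3.25, 3.14 and 3.28 in mutants and 3.48, 3.24 and 3.67 in wild types, and Atp6v1c2 and Atp6v1e2 were at 2.75 and 3.11 on average.

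Atp6v1h, a regulatory subunit of this sector, held the widest spread of the 58 genes. It was at 7.29, 7.48 and 6.85 in mutants and 4.36, 7.91 and 7.91 in wild types. Wild-type replicate 1 was far below every other array, and the other wild types were above every mutant. The difference was 0.48 ± 0.95 (SE) with all arrays and -0.70 ± 0.24 without wild-type replicate 1, with an unadjusted p of 0.0256 and a limma adjusted p of 0.873. No second probe set of this gene was among the 98. Atp6v1g2, a form enriched in neurons, was at 5.05, 6.28 and 5.05 in mutants and 5.73, 4.96 and 5.13 in wild types. Neuron markers were highest in mutant replicate 1, with a mean log2 level of 7.52, 6.99 and 6.81 in mutants and 5.37, 6.28 and 6.34 in wild types. The part of neurons in the values of Atp6v1g2 was not tested.

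Of the ATG genes, 6 were higher and 8 lower, with a median difference of -0.04. Of the 9 brighter than the median probe set, 5 were highest in wild-type replicate 1, as Atg10, Atg13, Atg101, Atg4b and Atg5 were. Atg10, the enzyme that passes ATG12 to ATG5, had the lowest unadjusted p of the 58 genes, 0.129. It was at 6.95, 6.59 and 6.96 in mutants and 7.76, 7.19 and 6.94 in wild types, a difference of -0.46 ± 0.27 (SE) that was -0.23 without wild-type replicate 1. Wild-type replicate 3 lay within the range of the mutants and the other wild types above it.

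Atg12, a ubiquitin-like protein, was at 11.33, 11.04 and 11.60 in mutants and 11.23, 11.22 and 11.07 in wild types, and Atg7, the enzyme that activates ATG12 and the ATG8 proteins, at 8.50, 6.67 and 7.31 against 7.55, 8.49 and 7.82. Both pairs of groups overlapped, with differences of 0.15 ± 0.21 and -0.46 ± 0.50. For Atg12 the second probe set gave 6.35, 6.03 and 6.45 in mutants and 6.49, 6.78 and 6.91 in wild types. There each mutant lay below each wild type, opposite to the brightest probe set, with a difference of -0.45 ± 0.21 and an unadjusted limma p of 0.0704. The third probe set, which was dim, differed by -0.11. For Atg7 the other 2 probe sets differed by -0.45 and -0.33. The difference of Atg7 was -0.05 without mutant replicate 2, the lowest array, and -0.96 without mutant replicate 1, the highest. For Atg4b, a protease that trims the ATG8 proteins, the difference went from -0.07 ± 0.51 with 6 arrays to 0.53 ± 0.22 once wild-type replicate 1 was left out. Atg2a, a lipid transfer protein whose probe set was dim, was at 4.39, 5.03 and 4.79 in mutants and 4.89, 3.97 and 4.31 in wild types.

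Atg5, which joins ATG12 in the complex that lipidates ATG8 proteins, was read differently by its 3 probe sets. The brightest gave 7.41, 7.09 and 7.84 in mutants and 9.65, 7.56 and 7.07 in wild types. The next gave 6.13, 5.91 and 6.06 in mutants and 3.63, 6.09 and 6.35 in wild types. Wild-type replicate 1 was thus the highest array by one probe set and the lowest by the other, while the groups overlapped on both. The differences were -0.65 ± 0.66 and 0.68 ± 0.70, with -0.21 ± 0.33 on the third, and the brightest gave 0.13 without wild-type replicate 1. The probe sets gave Atg5 no common direction.

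The ATG8 family, whose members are attached to the growing membrane and bind cargo receptors, differed by a median of -0.02, with 2 of 5 higher. Gabarap was at 11.03, 10.69 and 11.11 in mutants and 11.15, 10.77 and 10.89 in wild types, and Gabarapl1 at 10.98, 10.83 and 11.35 against 11.28, 11.10 and 10.90. Their differences were 0.0041 ± 0.21 and -0.04 ± 0.22 (SE), with overlapping groups, and the 95% intervals of the ratio ran from 0.710 to 1.42 and from 0.679 to 1.39. Gabarapl2 was at 8.31, 8.80 and 8.38 against 7.24, 8.78 and 8.59, a difference of 0.30 ± 0.43 that was -0.18 without wild-type replicate 1.

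Map1lc3b, the LC3 form most used as a marker of autophagic membranes, was at 10.13, 10.32 and 10.34 in mutants and 11.39, 9.52 and 9.94 in wild types. As for Atp6v0b, the mutants lay together between wild-type replicate 1 and the other wild types. The difference was -0.02 ± 0.47 with all arrays and 0.53 ± 0.21 without wild-type replicate 1, with limma adjusted p of 0.999 and 0.897. The other 3 probe sets differed by -0.25, 0.04 and 0.31 with all arrays, and by -0.26, 0.16 and 0.82 without wild-type replicate 1. Map1lc3a was dim, at 5.06, 5.51 and 4.29 in mutants and 5.65, 4.31 and 5.20 in wild types. RNA levels do not measure how much LC3 is attached to lipid.

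Wild-type replicate 1 was the highest or the lowest of the 6 arrays for 32 of the 58 genes (22 highest, 10 lowest), which is 55.2%, against 58.8% of all genes. That share is close to the one over all genes. Without it, 37 of the 58 genes were higher and 21 lower in mutants, 41 of the 58 kept their sign, and the median difference was 0.07. At an unadjusted p under 0.05 there were then 4 members, Atp6v0b and Map1lc3b higher and Ctsl and Atp6v1h lower, which is near the 5.46% of all probe sets that had such a p. limma still called 0 of the 58, with a lowest adjusted p of 0.839. The difference moved by more than 0.5 for 9 genes: Ctsc, Ctsl, Ctsz, Atp6v0b, Atp6v0d1, Atp6v1h, Atg4b, Atg5 and Map1lc3b. That of Ctsc went from 0.36 to -0.23 and that of Ctsz from -0.42 to 0.09.

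**Figure D4:**
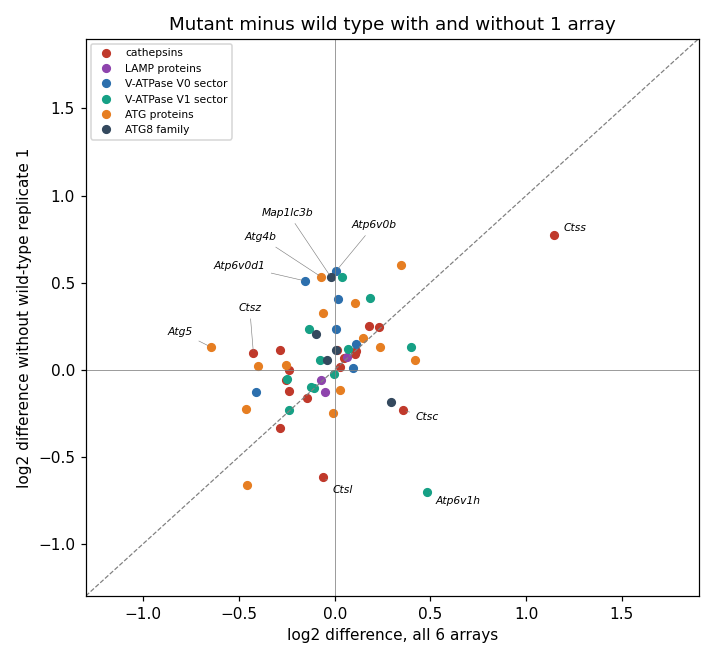
Log2 difference, mutant minus wild type, of each of the 58 genes with all 6 arrays (horizontal) and without wild-type replicate 1 (vertical), coloured by role; the dashed line marks equal values. Ctss and the 9 genes that moved by more than 0.5 are named. Atp6v1h goes from 0.48 to -0.70 and Atp6v0b from 0.01 to 0.57.

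Probe sets of the same gene gave a check within the arrays. Of the 21 genes with several probe sets, all had the same sign of difference in 13. The median gap between a gene's lowest and highest difference was 0.20, larger than the median absolute difference of the 58 genes. The widest gaps were those of Atg5 (1.32) and Lamp2 (0.75). Without wild-type replicate 1 the median gap was 0.32. The widest were then those of Map1lc3b (1.09), Atg7 (0.79) and Atg12 (0.75), with Atg5 at 0.32 and Lamp2 at 0.44. For Lamp2 the second probe set gave 9.79, 9.99 and 9.99 in mutants and 7.05, 10.30 and 9.99 in wild types, so that wild-type replicate 1 was low there and not on the brightest. Without wild-type replicate 1, 5 of those 13 genes kept their sign on every probe set: Ctsb, Atp6v1a and Atp6v1c1 with higher mutants, and Atg3 and Ctse with lower. Atg7, Atg13, Atp6v1e1 and Ctsz, lower on every probe set with all arrays, then had probe sets of both signs, as had Lamp2. Where in the transcripts the probes lie was not analysed here.

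**Figure D5:**
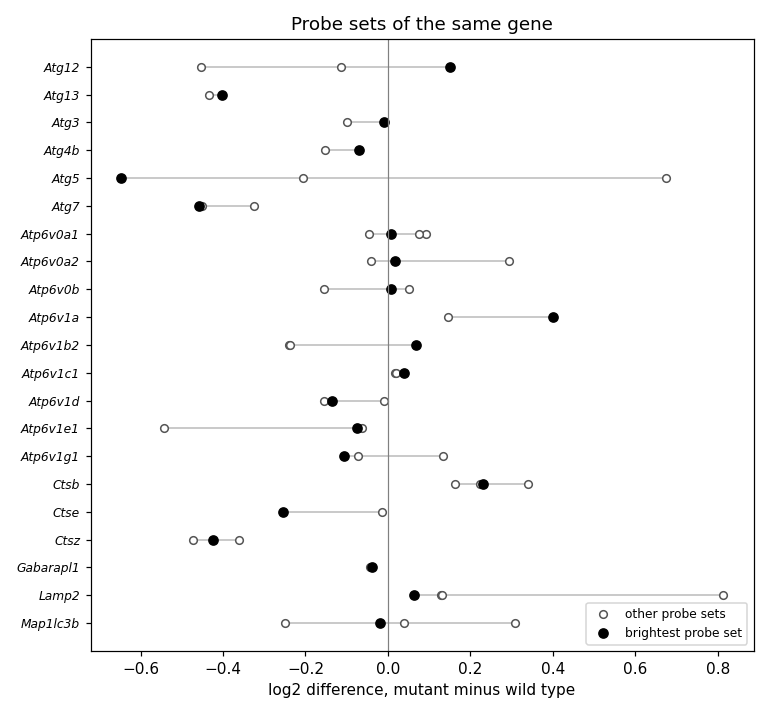
Log2 difference, mutant minus wild type, of every probe set of the 21 genes with several; filled points are the brightest probe set, which represents the gene, and open points the others. The probe sets of Atg5 run from -0.65 to 0.68, while the 4 probe sets of Ctsb lie between 0.16 and 0.34.

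Genes sorted by their promoter letters differed little too. The 13 genes with CACGTG in the window had a median log2 difference of -0.06, with 4 higher and 9 lower, against -0.02 for the 33 without it, with 15 higher and 18 lower. Lamp1, with 4 copies just before the start, differed by -0.05 and Ctsd by -0.24. Without wild-type replicate 1 the median was 0.06 both for the 13, with 7 higher and 6 lower, and for the 33. The 8 genes with the AP-2 motif had a median difference of -0.05, with 1 higher and 7 lower, against -0.03 for the 38 without it. Without wild-type replicate 1 the 8 genes were 5 higher and 3 lower, with a median of 0.19, against 0.06 for the 38. With all arrays, of those 8, the largest differences were those of Atg10 (-0.46) and of Atg4b and Lamp5 (-0.07 each).

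Other genes of the same pathways, chosen by function and not by symbol, were called in no case (0 at an adjusted p under 0.05 in each list). Of 29 lysosomal hydrolases and their activators, 11 were higher and 18 lower, with a median difference of -0.10. The groups did not overlap for 1 (3.45%, against 8.8% of all genes). At an unadjusted limma p under 0.05 there was also 1 (3.45%, against 3.85% of all genes). Without wild-type replicate 1, 16 were higher and 13 lower, with a median of 0.05. The gene with such a p was Galns, a sulfatase that degrades keratan and chondroitin sulfate, at 4.60, 5.44 and 4.53 in mutants and 6.92, 5.62 and 6.18 in wild types. Each mutant lay below each wild type, with a difference of -1.38 ± 0.41 (SE), an unadjusted p of 0.0125 and a limma adjusted p of 0.999. Idua, an enzyme that degrades dermatan and heparan sulfate, differed by -0.48 ± 0.29.

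Of 20 genes of lysosomal membrane, transport and acidification, 10 were higher and 10 lower, with a median of 0.0025. Scarb2, the membrane protein LIMP-2 that carries glucocerebrosidase to lysosomes, was at 9.88, 9.71 and 10.16 in mutants and 8.80, 9.79 and 9.20 in wild types. Its difference was 0.65 ± 0.29, and 0.42 without wild-type replicate 1. The dim chloride transporter gene Clcn7 differed by -0.29 ± 0.19. Of 27 autophagy regulators and receptors, 16 were higher and 11 lower, with a median of 0.14. Ulk2, a kinase that starts autophagy, was at 8.22, 8.11 and 8.23 in mutants and 7.83, 7.90 and 7.86 in wild types. Its groups were apart, with a difference of 0.32 ± 0.16, and those of Uvrag, a dim partner of the lipid kinase complex, met at 5.14, with a difference of 0.50 ± 0.26. Of 7 cathepsin inhibitors, 2 were higher and 5 lower, with a median of -0.13, and Cst6, which was dim, and Serpinb6a differed by -0.45 ± 0.23 and -0.37 ± 0.31. The difference of Serpinb6a was -0.097 without wild-type replicate 1.

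Genes tied to the loss of organelles in fibres held larger differences, and none was called. Of 9 measured, 3 were higher and 6 lower, with a median of -0.65. At an unadjusted limma p under 0.05 there were 4 (44.4%), against 3.85% of all genes. The groups did not overlap for 5 (55.6%, 2 with higher and 3 with lower mutants), against 8.8% of all genes. The list was chosen with earlier results of these data known, so these shares are not a test of it. Dnase2b, the DNase that degrades fibre nuclei and works in lysosomes, was at 7.77, 9.04 and 8.36 in mutants and 10.10, 9.20 and 10.19 in wild types. Each mutant lay below each wild type, and the difference was -1.44 ± 0.41 (SE), a limma adjusted p of 0.999. Alox15, a lipoxygenase that acts on organelle membranes and whose probe set was dim, differed by -1.47 ± 0.36, and Plaat3 by -0.65 ± 0.22. In the other direction, Lmnb1 differed by 0.81 ± 0.26 and Casp6, which was dim, by 0.65 ± 0.32. For both of these each mutant lay above each wild type. Whether these genes differ from the 58 in this was not tested.

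Markers of cell types were read on the same arrays. Of 11 lens fibre genes, 1 was higher and 10 lower in mutants, with a median difference of -0.28. Of these 11, Dnase2b, Gja3 and Hsf4 were also among the organelle loss genes above. Of 9 lens epithelium genes 5 were higher and 4 lower, with a median of 0.0029. Once wild-type replicate 1 was left out, 1 of these 9 was higher and 8 lower, with a median of -0.31. All 13 neuron markers had higher values in mutants (median 1.22), as had 6 of 9 pigment cell markers (median 0.56, and 0.11 without wild-type replicate 1), and 4 of 9 endothelial markers were higher (median -0.14). No gene of these lists was called. Pigment cells and macrophages are rich in lysosomes or related organelles. The part of these cells, or of neurons, in the levels of the 58 genes was not tested.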

How the data were processed

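Gene expression was measured on 6 arrays, 3 per genotype. The authors deposited 1 linear intensity per probe set and array. Per the submitters' processing notes RMA was used; its settings and version are not given in the sources used here. Array medians were 36.5 to 40.0, and no 2 arrays shared more than 0.186% of values. The number of arrays limits the precision.

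The 64 control probe sets were left out. Log2 of the 22626 other intensities, with no pseudocount, was fitted with limma 3.58.1 in R 4.3.3 (mutant against wild type, lmFit and eBayes), with Benjamini-Hochberg adjustment and a threshold of 0.05, a procedure tested on simulated data. Genes were named from the platform annotation of 2016: 20380 probe sets had 1 symbol, 691 several and 1555 none. All 58 members matched GRCm38.p6 by gene number.

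Members and lists were chosen with earlier results of these data known. By a rule in the design, the text names the brightest genes and those of lowest p of each role. The rule adds the genes of lowest p of each other pathway list. It always adds Ctsb, Ctsd, Ctsl, Lamp1, Lamp2, Atg5, Atg7, Map1lc3b and Gabarapl1. Members outside this rule, such as Atp6v1h, Atp6v0d1, Atp6v1g2, Atg4b and the dim cathepsins, were named after their values were seen. So were the markers Ptprc and Cd68 and the organelle loss genes Plaat3, Lmnb1 and Casp6. Alternatives changed the normalization, prior, dim filter, array weights, replicate block and the arrays used.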

Additional observations from a re-analysis of the deposited data

How the results depend on the processing

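Under none of 14 alternatives, nor at an adjusted p threshold of 0.1, was a lysosome or autophagy gene called by limma. Array weights, estimated at 0.224, 0.569 and 5.65 for the 3 wild types, gave 7 probe sets past the threshold, none of which stood for a member, where the other settings gave 0; 4 members then had an unadjusted p under 0.05, against 15.0% of all probe sets. With the replicate number as a block, 0 probe sets passed (522 at an unadjusted p under 0.05, lowest adjusted p 0.999), and Ctss was the 1 member with such a p. Same-numbered arrays did not deviate together (r = -0.07, -0.26 and -0.16). These are deviations from group means in which wild-type replicate 1 stood apart, so they cannot decide whether the numbers pair the samples. Without wild-type replicate 1 and mutant replicate 2 together, the median difference of the ATG genes was 0.21 and that of the ATG8 family 0.17, Ctss differed by 0.23, and Atp6v0e2 turned to 0.062. Leaving out 1 array at a time, the median was -0.08 to 0.07 over the 58 genes, -0.05 to 0.07 for cathepsins, -0.086 to 0.086 for LAMP genes, -0.33 to 0.23 for V0, -0.14 to 0.02 for V1, -0.13 to 0.09 for ATG genes and -0.080 to 0.11 for the ATG8 family and -0.56 to -0.13 for Atp6v0e2. Centring arrays on their medians moved the median difference of all probe sets by -0.06 and left 19 members higher and 39 lower. Dim probe sets lie near background, so their differences are limited by signal.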
